A study of Mus musculus with 36 samples.

Results

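The ventricles of C57BL/6 mouse embryos at embryonic day E18.5, close to birth, were compared with those at E12.5, when the ventricular chambers are being divided by the septum. The comparison rested on 3 arrays of each age, 6 of the 36 arrays of a benchmark series on normal heart development, chosen by their titles, with their source given as both ventricles. No animal carried a treatment or an engineered allele. The other arrays used here were 3 each of ventricles at E13.5, E14.5 and E16.5 and of atria at E18.5 and E12.5, all from timed matings of the same strain. Whether arrays of 1 group came from separate embryos, litters or pools is not in the labels. Standard errors and p-values rest on the spread within groups, pooled over the 12 groups of all 36 arrays, which may be technical. A gene that varied more within the other groups therefore has a larger error here than the 6 compared arrays alone would give. A gene that varied more within the compared groups has a smaller error here. With only the compared arrays fitted, 6080 probe sets differed at an adjusted p below 0.05 (limma), against 7835 in the fit used here. Every value is an intensity that had been scaled to a common level on each array before deposit, and it has no absolute unit.

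In this period the ventricular wall of a mouse changes from a thin, trabeculated layer into compact muscle with coronary vessels and a fibrous matrix. Heart muscle cells still divide before birth, but they slowly leave the cell cycle, build mitochondria and turn from glucose towards fatty acids as fuel, while definitive red cells from the liver replace the primitive red cells of the yolk sac. Whole ventricles hold muscle, vessel, stromal and blood cells together, so that fewer cells of a type and less RNA per cell cannot be told apart in any result below.

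The label was checked against markers. The heart muscle genes Actc1, Tnnt2, Ttn, Myh6 and Ryr2 and the ventricular genes Myl2, Myh7, Irx4 and Hey2 were high on the 6 arrays, with Myl2 between 14090 and 20417 and Irx4 between 1612 and 1878. The check also named Mpped2, which was lower at E18.5 (below), and Kcne1, whose log2 difference between the ages was uncertain (1.30 ± 0.90 SE). The atrial gene Sln was not uniform: it had 1789, 72.3 and 15.5 on the E18.5 arrays, against 204, 26.3 and 334 on the E12.5 arrays, and E18.5 array 1 also had the higher value of the atrial light chain Myl7, with 9135 against 4792 and 4227 on its 2 companions. Of the other atrial genes named for the check, Mybphl had a log2 difference of -0.93 ± 0.37 SE. Bmp10 is described below, and values of Nr2f1 and Stard10 are not given. Among the 6 ventricular arrays, E12.5 array 2 stood apart. After centring each probe set over the 15 ventricular arrays, its profile correlated at 0.49 with E13.5 array 2 and only at 0.29 and 0.15 with the other E12.5 arrays, which correlated at 0.58 with each other. Some results that lean on this array are therefore also given without it.

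Of 12983 genes measured, 1903 (14.7%) were higher and 2196 (16.9%) lower at E18.5 at an adjusted p below 0.05 (limma, Benjamini-Hochberg over 27256 probe sets), and the median log2 difference of all genes was -0.03. Counts of list members below are to be read against these 2 shares, and a count near them says little about its list. A change of at least 2-fold was reached by 421 of the genes that rose (3.24% of those measured) and 354 of those that fell (2.73%). The 3 E18.5 values lay above the 3 E12.5 values for 19.7% of genes and below them for 22.9%. Without E12.5 array 2, 1756 of the 1903 and 1906 of the 2196 kept their call and direction, and of the 2-fold genes 410 of 421 and 350 of 354. Median centring, in place of the deposited scaling, left 3502 probe sets higher and 2704 lower, against 3468 (12.7%) and 4367 (16%) of 27256 here, in all 28.7%, so that the share of calls that were higher went to 56.4%, against 44.3%.

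Myom2, which encodes the M-band protein myomesin 2, had the highest positive difference among the called genes whose groups did not overlap. Its intensity was 5840, 5915 and 5360 on the E18.5 arrays, against 56.6, 182 and 96.9 on the E12.5 arrays (log2 difference 5.59 ± 0.66 SE, adjusted p = 5.27e-07). The 3 E18.5 values lay close together and far above every E12.5 value. Kcnip2, the subunit KChIP2 of the channels that carry the transient outward potassium current, had 1990, 2143 and 1850 on the E18.5 arrays, against 40, 87.0 and 48.3 on the E12.5 arrays (log2 difference 4.78 ± 0.58 SE, adjusted p = 6.69e-07). Ckmt2, the mitochondrial creatine kinase of striated muscle, had 7494, 8386 and 7131 on the E18.5 arrays, against 389.8, 571 and 281 on the E12.5 arrays (log2 difference 4.21 ± 0.39 SE, adjusted p = 8.92e-09), again with a wide gap between the ages. Dhrs7c, an enzyme of the sarcoplasmic reticulum, rose by a similar amount (log2 difference 4.74 ± 0.69 SE, adjusted p = 7.79e-06). Further genes among the 20 that rose by the largest amounts were Nmrk2, a nicotinamide riboside kinase of muscle (log2 3.87), Cavin4, a caveolar protein of muscle (3.56), the amine oxidase Aoc3 (4.01), the small proteoglycan asporin, Aspn (3.97), and the prostaglandin D synthase Ptgds (3.96). Their E18.5 and E12.5 values did not overlap, by the rule that chose them.

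**Figure D1:**
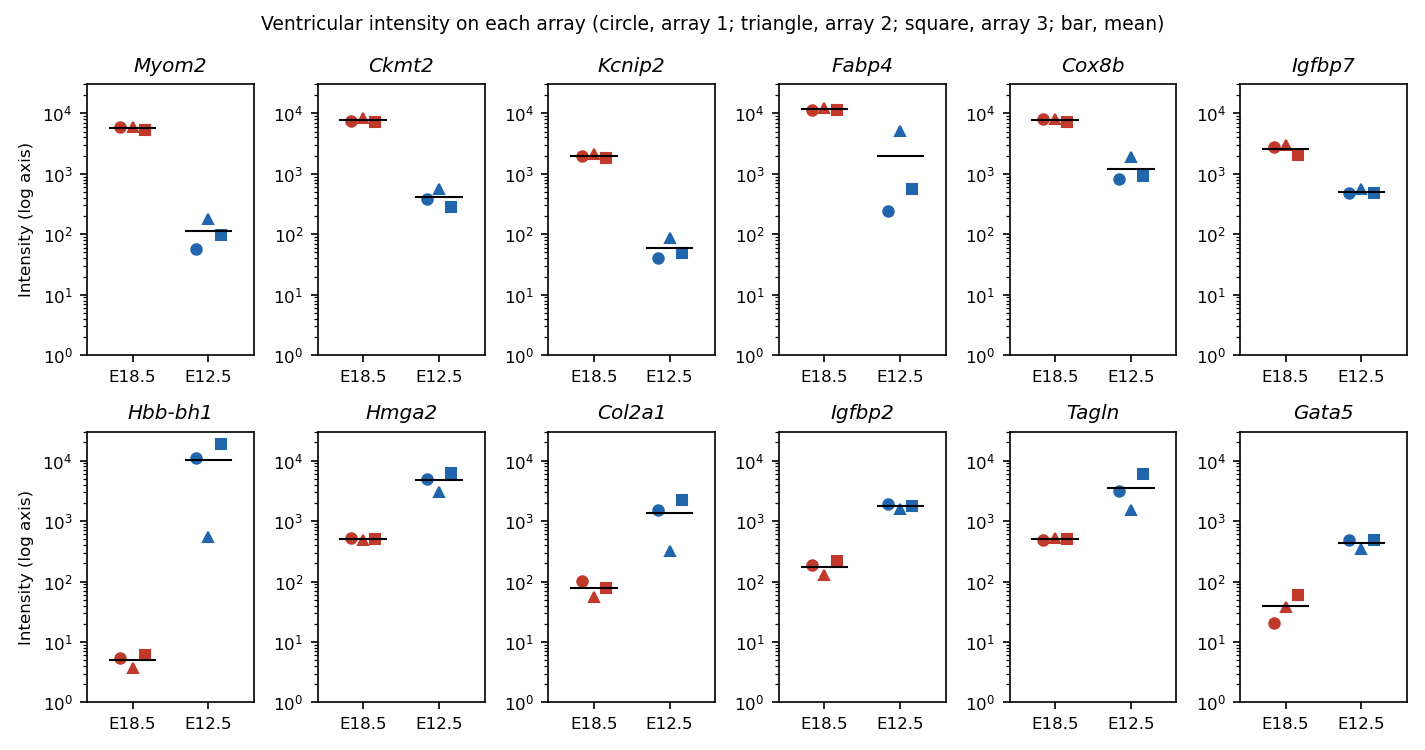
Intensity on each ventricular array (log axis) of 6 genes higher and 6 genes lower at E18.5, with E18.5 at the left and E12.5 at the right of each panel; symbols are arrays and bars are means of 3. Myom2 lies between 5360 and 5915 at E18.5 and between 56.6 and 182 at E12.5, and E12.5 array 2 (triangle) stands nearer to E18.5 than its companions for Fabp4 and Hbb-bh1.

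At the other end stood 2 embryonic beta-like globins and the embryonic alpha-like globin. Hbb-bh1 had 5.5, 3.7 and 6.0 on the E18.5 arrays, against 11010, 554 and 18602 on the E12.5 arrays (adjusted p = 4.44e-05). Its E18.5 values lie below the added constant of 17, so its log2 difference depends on that constant, at -9.66 with 1, -7.79 with 17 and -6.11 with 68. Hba-x differed by -7.01 and Hbb-y by -5.92 on the log2 scale. The cartilage and cushion collagen Col2a1 had 100.5, 54.7 and 79.0 on the E18.5 arrays, against 1522, 321 and 2237 on the E12.5 arrays (log2 difference -3.50 ± 0.63 SE, adjusted p = 0.000111). The chromatin protein Hmga2, an architectural factor of fetal growth, had 521, 481 and 506 on the E18.5 arrays, against 5008, 3058 and 6125 on the E12.5 arrays (log2 difference -3.13 ± 0.41 SE, adjusted p = 2.13e-06), and none of the 3 E18.5 values came near an E12.5 value. Other genes among the 20 that fell by the largest amounts were the integrin ligand nephronectin, Npnt (-3.38), the matrix link protein Hapln1 (-3.30), the insulin-like growth factor binding protein Igfbp2 (-3.23), the GATA factor Gata5 (-3.06), the growth factor midkine, Mdk (-2.65), and transgelin, Tagln (-2.56). Each of the 20 that rose kept its call when any 1 of the 6 arrays was left out. Of the 20 that fell, the red cell genes Hemgn and Kel lost theirs without E12.5 array 3 (adjusted p = 0.202 and 0.0742), and Hemgn also without E18.5 array 2 (adjusted p = 0.0558).

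Genes for uptake and beta-oxidation of fatty acids rose in large number: 24 of 29 measured members rose and 0 fell, with a median log2 difference of 0.68, against 14.7% and 16.9% of all genes (20 to 25 higher and 0 lower with any 1 of the 6 arrays left out). The fatty acid binding protein of vessels and fat, Fabp4, had 11395, 12387 and 11392 on the E18.5 arrays, against 245, 5156 and 562 on the E12.5 arrays (log2 difference 3.67 ± 0.76 SE, adjusted p = 0.00052; 4.91 without E12.5 array 2). The 2 groups did not overlap, and the E12.5 group itself spread over a wide range, with array 2 at its top. Cd36, the membrane transporter of long-chain fatty acids, had 5964, 6826 and 6636 on the E18.5 arrays, against 1230, 2331 and 1016 on the E12.5 arrays (log2 difference 2.16 ± 0.24 SE, adjusted p = 1.9e-07). Fabp3, the binding protein of heart muscle, averaged 15004 at E18.5 and 7458 at E12.5 (log2 difference 1.03 ± 0.23 SE, adjusted p = 0.00101), and lipoprotein lipase, Lpl, averaged 11027 at E18.5 and 5426 at E12.5 (log2 difference 1.02 ± 0.15 SE, adjusted p = 1.23e-05). The acyl-CoA dehydrogenases Acadvl (1.05), Acadm (0.90) and Acadl (0.68), the trifunctional protein subunits Hadha (0.50) and Hadhb (0.54), and the electron transfer flavoprotein genes Etfa (0.67) and Etfdh (0.84) rose by smaller amounts. The carnitine palmitoyltransferases that bring fatty acids into mitochondria did not pass the test, with log2 differences of 0.24 for Cpt1a and -0.0028 for Cpt2, and neither did Pdk4 at 0.29.

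In the tricarboxylic acid cycle, 15 of 19 measured members rose and 0 fell, with a median log2 difference of 0.40 (11 to 15 higher and 0 lower with any 1 of the 6 arrays left out). Dld (0.77), Dlat (0.76) and Pdhb (0.49) of the pyruvate dehydrogenase complex, the oxoglutarate dehydrogenase Ogdh (0.66) and citrate synthase, Cs (0.45), were among those that rose, all by less than 2-fold. In the respiratory chain, 20 of 39 measured members rose and 0 fell, with a median log2 difference of 0.33. Ndufa8 of complex I had 8670, 9216 and 8113 on the E18.5 arrays, against 4695, 5474 and 5105 on the E12.5 arrays (log2 difference 0.77 ± 0.11 SE, adjusted p = 1.15e-05), with no overlap, and Uqcrq of complex III rose by 0.65. The catalytic subunits of ATP synthase, Atp5a1 (0.10) and Atp5b (0.09), did not pass the test. The respiratory chain count went to 13 without E12.5 array 1, to 12 without E18.5 array 2 and to 32 under quantile normalization. Mitochondrial ribosomal protein genes rose in 9 of 21 cases, with none lower and a median of 0.30 (6 to 10 higher and 0 lower with any 1 of the 6 arrays left out), whereas of 19 cytosolic ribosomal protein genes 1 fell, Rpl12 (-0.52), and the median was -0.09. Under quantile normalization 9 of these 19 fell, and 5 for the mean of the probe sets of a gene.

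Cytochrome c oxidase has paired genes for several subunits, with a form used in heart and skeletal muscle and a form used in most tissues. The 3 muscle forms measured rose. Cox8b had 7972, 8064 and 7310 on the E18.5 arrays, against 805, 1904 and 928 on the E12.5 arrays (log2 difference 2.77 ± 0.42 SE, adjusted p = 1.2e-05), Cox7a1 averaged 6205 at E18.5 and 2429 at E12.5 (log2 difference 1.36 ± 0.17 SE, adjusted p = 8.57e-07), and Cox6a2 averaged 13155 at E18.5 and 7948 at E12.5 (log2 difference 0.73 ± 0.17 SE, adjusted p = 0.0021). All E18.5 values of Cox8b lay far above the highest E12.5 value, that of array 2. The widely used forms Cox8a (-0.01), Cox7a2 (0.05) and Cox6a1 (-0.03) did not pass the test. The pattern did not hold for all pairs, as the widely used Cox4i1 rose by 0.36 and its partner Cox4i2 by 0.57. Both lost their call without E12.5 array 1 (adjusted p = 0.126 and 0.0585), among other settings. In all, 5 of 8 measured members of this list rose and 0 fell. Of the creatine kinases, the cytosolic muscle form Ckm averaged 14333 at E18.5 and 3090 at E12.5, with E12.5 array 2 at 7152 and its companions at 956 and 1163 (log2 difference 2.82 ± 0.76 SE, adjusted p = 0.00574; 3.73 without that array), and the brain form Ckb rose by 0.39. Myoglobin, Mb, the oxygen-binding protein of muscle, differed by 1.27 and did not pass the test.

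Of the nuclear regulators of these genes, 11 of 16 measured rose and 1 fell. Perm1, a muscle regulator of oxidative metabolism, had 1221, 886 and 1113 on the E18.5 arrays, against 94.0, 319 and 103 on the E12.5 arrays (log2 difference 2.71 ± 0.41 SE, adjusted p = 1.42e-05), although its 2 tested probe sets were called in opposite directions. Ppara, the fatty acid receptor that drives oxidation genes, had 797, 688 and 642 on the E18.5 arrays, against 127, 207 and 188 on the E12.5 arrays (log2 difference 1.95 ± 0.34 SE, adjusted p = 9.08e-05), with a wide gap between the groups. The estrogen-related receptor Esrra (1.18), the thyroid hormone receptor Thra (0.90), the coactivator Ppargc1b (0.85) and the glucocorticoid receptor Nr3c1 (0.74) also rose. Ppargc1a, the coactivator PGC-1alpha, rose by only 0.37 and lost its call on leaving out any 1 of 5 arrays (adjusted p up to 0.2). The 1 that fell was Esrrg (-0.39), whose probe sets disagreed and which lost its call without E12.5 array 1 (adjusted p = 0.0911), E18.5 array 1 (0.0841) or E18.5 array 3 (0.0536). The count of 11 was 6 without E12.5 array 1, and 7 without E12.5 array 3, E18.5 array 1 or E18.5 array 2.

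Of 27 measured genes of glucose transport, glycolysis and glycogen, 12 rose and 3 fell. The insulin-responsive transporter Slc2a4 had 1879, 2067 and 1672 on the E18.5 arrays, against 576, 871 and 394 on the E12.5 arrays (log2 difference 1.65 ± 0.19 SE, adjusted p = 3.22e-07). The transporters Slc2a1 (log2 difference -1.11 ± 0.16 SE, adjusted p = 6.97e-06) and Slc2a3 (log2 difference -1.68 ± 0.23 SE, adjusted p = 2.91e-06) both fell, Slc2a1 to a mean of 2663 at E18.5, against 5942 at E12.5. The muscle enolase Eno3 (1.03), muscle phosphofructokinase Pfkm (0.85), muscle phosphoglycerate mutase Pgam2 (0.66) and the muscle glycogen phosphorylase Pygm (0.86) rose, while the widely expressed mutase Pgam1 fell (-0.45). The glycolytic genes Ldha (0.0017), Pkm (-0.01), Aldoa (0.04) and Tpi1 (0.06) did not pass the test. Of the mitochondrial dynamics and antioxidant genes, the fusion genes Mfn2 (1.25) and Mfn1 (1.04) and the mitochondrial superoxide dismutase Sod2 (0.67) rose, and the secreted peroxidase Gpx3 fell (-1.14).

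**Figure D2:**
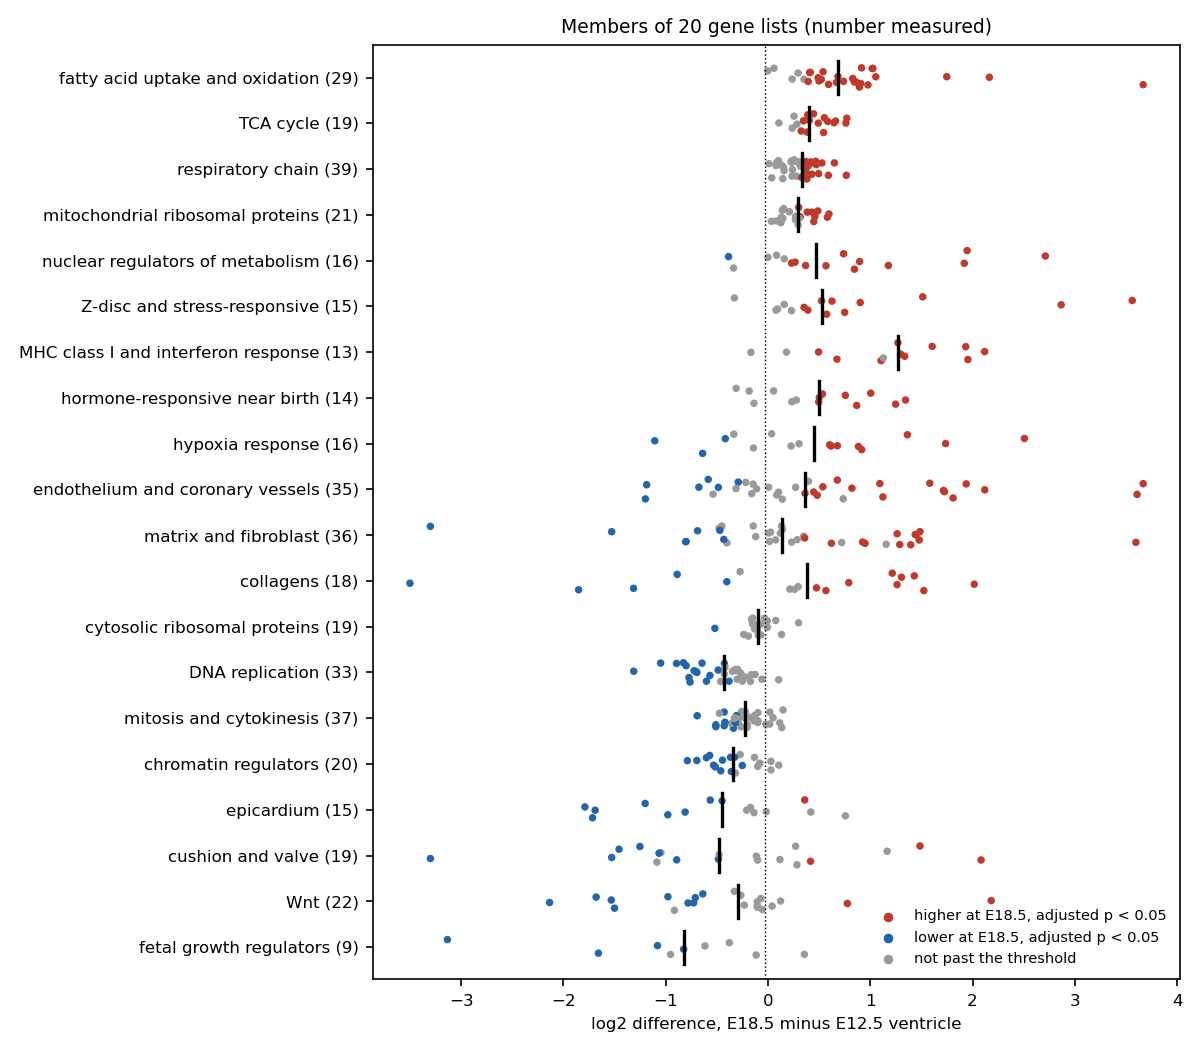
Log2 difference (E18.5 minus E12.5 ventricle) of each measured member of 20 gene lists, 1 point a gene; black bars are list medians and the dotted line is the median of all genes, -0.03. Of 29 fatty acid genes, 24 lie to the right as called genes and none to the left, while in DNA replication 16 of 33 lie to the left and none to the right.

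Among thick filament genes 2 of 11 rose and 2 fell, and among thin filament genes 3 of 13 rose and 3 fell (1 and 1 without E12.5 array 3, 1 and 2 without E18.5 array 2). Of all genes, 14.7% rose and 16.9% fell. The heavy chain Myh6, the fast form of adult mouse heart, had 15540, 16060 and 13050 on the E18.5 arrays, against 10984, 9438 and 9218 on the E12.5 arrays (log2 difference 0.59 ± 0.15 SE, adjusted p = 0.00343), and Myh7, the slow fetal form, had 18311, 17718 and 14352 on the E18.5 arrays, against 15812, 15291 and 21868 on the E12.5 arrays and a log2 difference of -0.06. The E18.5 and E12.5 values of Myh6 did not overlap, and those of Myh7 did. The inhibitory troponin Tnni3 of mature heart rose (log2 difference 0.56 ± 0.15 SE, adjusted p = 0.00495), with means of 13391 at E18.5 and 9054 at E12.5, while its fetal counterpart Tnni1 differed by -0.02. The atrial light chains fell, Myl7 to a mean of 6051 at E18.5, against 12207 at E12.5 (log2 difference -1.06 ± 0.21 SE, adjusted p = 0.00043), and Myl4 by -0.68. Slow skeletal troponin T, Tnnt1, had 1010, 1056 and 965 on the E18.5 arrays, against 4106, 5954 and 4088 on the E12.5 arrays (log2 difference -2.18 ± 0.28 SE, adjusted p = 1.14e-06), with no overlap, and skeletal actin, Acta1, averaged 2857 at E18.5 and 5592 at E12.5 (log2 -0.94, with an adjusted p of 0.0557 without E12.5 array 3). Actc1 (-0.11), Tnnt2 (0.10), Ttn (-0.03), Myl2 (-0.02) and Myl3 (-0.0004) did not pass the test. The standard errors of Myl2 (0.77) and Myh7 (0.57) were large, and the Myh7 value of E12.5 array 3 was the highest on that array. Their small differences therefore do not show that their levels stayed the same.

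Among genes of the Z-disc and of mechanical stress, 10 of 15 measured members rose and 0 fell, with a median log2 difference of 0.52 (7 to 9 higher and 0 to 1 lower with any 1 of the 6 arrays left out). Besides Cavin4, the ankyrin repeat gene Ankrd23 had 456, 429 and 400.2 on the E18.5 arrays, against 42.9, 42.8 and 46.3 on the E12.5 arrays (log2 difference 2.87 ± 0.34 SE, adjusted p = 5.45e-07), and the LIM protein gene Fhl2 averaged 12371 at E18.5 and 4452 at E12.5 (log2 difference 1.51 ± 0.18 SE, adjusted p = 5.85e-07). The ubiquitin ligase Trim63 (0.90), the calsarcin Myoz2 (0.75) and the PDZ-LIM proteins Ldb3 (0.57) and Pdlim5 (0.63) followed. Ankrd1, the fetal member of the same ankyrin family, differed by 0.08.

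For calcium handling, 6 of 13 measured genes rose and 2 fell (5 and 0 without E12.5 array 3, 6 and 1 without E12.5 array 2 or E18.5 array 2). The cardiac calsequestrin Casq2, the calcium store of the sarcoplasmic reticulum, had 9633, 10090 and 8511 on the E18.5 arrays, against 2434, 5694 and 2426 on the E12.5 arrays (log2 difference 1.53 ± 0.31 SE, adjusted p = 0.000397). The release channel Ryr2 averaged 4943 at E18.5 and 2626 at E12.5 (log2 difference 0.92 ± 0.12 SE, adjusted p = 2.77e-06), with no overlap between the ages, and S100a1 rose by 1.0. The skeletal calsequestrin Casq1 averaged 2336 at E18.5 and 3831 at E12.5 (-0.69) and lost its call without E12.5 array 3 (adjusted p = 0.061). The pump Atp2a2 (0.10) and its inhibitor Pln (0.34) did not pass the test.

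Of 19 ion channel genes, 9 rose and 2 fell (5 and 1 without E12.5 array 1, and 1 fell without E12.5 array 3, E18.5 array 1 or E18.5 array 2). The potassium channel subunits Kcna5 (1.79) and Kcnq1 (1.68) rose beside Kcnip2. The 2 measured T-type calcium channels went in opposite directions: Cacna1g had 628, 554 and 422 on the E18.5 arrays, against 36.2, 65.4 and 47.2 on the E12.5 arrays (log2 difference 3.06 ± 0.36 SE, adjusted p = 4.32e-07) and Cacna1h averaged 432 at E18.5 and 977 at E12.5 (log2 difference -1.14 ± 0.16 SE, adjusted p = 3.28e-06). Neither gene's groups overlapped. The beta subunit Cacnb2 rose by 0.54. Of 13 genes of the intercalated disc, 3 rose by less than 2-fold (1 without E12.5 array 3), vinculin, Vcl (0.39), among them, and Gja5, connexin 40 of the trabeculae and conduction system, fell to a mean of 85.4 at E18.5, against 317.5 at E12.5 (log2 difference -1.80 ± 0.43 SE, adjusted p = 0.00192). Gja1, the main connexin of working muscle, differed by 0.26.

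In DNA replication, 0 of 33 measured members rose and 16 fell, with a median log2 difference of -0.43 (0 higher and 14 to 16 lower with any 1 of the 6 arrays left out). The thymidylate synthase gene Tyms (-1.31), the polymerase Pole (-1.05), the ligase Lig1 (-0.89) and the helicase subunits Mcm3 (-0.76) and Mcm5 (-0.64) fell. Mcm5 had 1748, 2106 and 2009 on the E18.5 arrays, against 3480, 2967 and 2761 on the E12.5 arrays (log2 difference -0.64 ± 0.16 SE, adjusted p = 0.0025), with no overlap. In mitosis and cytokinesis, 9 of 37 members fell and none rose, with a median of -0.22, against 16.9% of all genes that fell. Mki67, the proliferation antigen Ki-67, had 3126, 2675 and 2518 on the E18.5 arrays, against 4449, 4087 and 4920 on the E12.5 arrays (log2 difference -0.69 ± 0.21 SE, adjusted p = 0.0113), and its adjusted p was 0.0532 without E12.5 array 3. Cks1b, a partner of the mitotic kinase, had 5757, 6952 and 6114 on the E18.5 arrays, against 8580, 8605 and 9583 on the E12.5 arrays (log2 difference -0.51 ± 0.09 SE, adjusted p = 7.47e-05). Cdk1 itself fell by 0.34 on the log2 scale and lost its call without E12.5 array 3 (adjusted p = 0.117) or E18.5 array 3 (0.115) and under median centring (0.219). Top2a, the topoisomerase of chromosome separation, fell by 0.43 and lost its call without E12.5 array 2 (adjusted p = 0.056), E18.5 array 3 (0.0796) or under median centring (0.13). The count of 9 was 5 without E12.5 array 2 or E12.5 array 3, 4 without E18.5 array 3 and 3 under median centring.

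The members of the replication, mitosis and fatty acid lists that were called each moved in 1 direction, and the 250 bases before their starts were searched for a short letter pattern of each kind of promoter (RefSeq, GRCm38.p6). The pattern TTTGAA is the core of the cell cycle homology element found in promoters of mitotic genes, and TTTGAA or its reverse complement TTCAAA was in 7 of 10 such windows of the 9 mitosis genes that fell, against 16% of 32851 windows of all genes. Over all measured mitosis genes with an entry, called or not, 10 of 30 held it. The windows of the 3 with the largest change among those that hold it are given, 5′ to 3′ on the gene's strand, with each match in capitals.
Mki67 chr7:135716380-135716629 (minus strand): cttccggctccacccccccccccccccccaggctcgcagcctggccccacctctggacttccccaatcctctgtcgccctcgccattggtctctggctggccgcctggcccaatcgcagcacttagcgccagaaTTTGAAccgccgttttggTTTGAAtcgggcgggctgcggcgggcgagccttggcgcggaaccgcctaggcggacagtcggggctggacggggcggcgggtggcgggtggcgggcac
Cks1b chr3:89418292-89418541 (minus strand): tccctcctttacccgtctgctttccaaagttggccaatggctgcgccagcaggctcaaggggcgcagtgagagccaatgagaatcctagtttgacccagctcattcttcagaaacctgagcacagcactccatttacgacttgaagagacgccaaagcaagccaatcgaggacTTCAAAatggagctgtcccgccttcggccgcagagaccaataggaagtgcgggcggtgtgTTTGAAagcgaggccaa
Top2a chr11:99024190-99024439 (minus strand): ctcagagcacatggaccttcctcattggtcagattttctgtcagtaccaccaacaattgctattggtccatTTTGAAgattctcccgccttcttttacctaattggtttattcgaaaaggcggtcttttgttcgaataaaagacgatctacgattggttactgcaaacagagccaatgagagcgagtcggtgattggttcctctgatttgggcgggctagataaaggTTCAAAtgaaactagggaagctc
The match nearest to the start ends 12 bases before it in Cks1b, 18 in Top2a and 93 in Mki67. The pattern GGCGGGA, a core of binding sites of E2F factors, which switch on S-phase genes, was in 2 of 18 windows of the 13 replication genes that fell and have a promoter entry, against 9.75% of all windows. Over all measured replication genes with an entry, called or not, 7 of 27 held it. The 2 windows were those of Mcm5 and Dnmt1, shown with the match in capitals. Where a gene has several listed starts, the window printed here and above is the first that holds the pattern. It may therefore belong to an alternative start and lie inside the gene.
Mcm5 chr8:75109259-75109508 (plus strand): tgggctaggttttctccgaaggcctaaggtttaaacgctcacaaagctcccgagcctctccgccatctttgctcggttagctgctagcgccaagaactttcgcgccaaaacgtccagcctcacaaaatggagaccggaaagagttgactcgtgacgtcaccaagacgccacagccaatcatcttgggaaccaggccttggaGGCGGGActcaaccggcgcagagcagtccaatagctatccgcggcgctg
Dnmt1 chr9:20952624-20952873 (minus strand): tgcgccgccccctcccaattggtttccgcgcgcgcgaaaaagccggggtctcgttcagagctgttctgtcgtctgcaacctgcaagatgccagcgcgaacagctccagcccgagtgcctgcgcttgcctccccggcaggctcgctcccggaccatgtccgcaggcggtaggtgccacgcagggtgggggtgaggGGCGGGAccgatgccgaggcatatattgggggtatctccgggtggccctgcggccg
The same search was made for the fatty acid genes with AAGGTCA, the core of binding sites of nuclear receptors such as the estrogen-related receptors. It was in 1 of 23 windows of the 20 that rose and have an entry, against 4.08% of all windows, as its reverse complement TGACCTT in Acadm, the medium-chain acyl-CoA dehydrogenase.
Acadm chr3:153944644-153944893 (minus strand): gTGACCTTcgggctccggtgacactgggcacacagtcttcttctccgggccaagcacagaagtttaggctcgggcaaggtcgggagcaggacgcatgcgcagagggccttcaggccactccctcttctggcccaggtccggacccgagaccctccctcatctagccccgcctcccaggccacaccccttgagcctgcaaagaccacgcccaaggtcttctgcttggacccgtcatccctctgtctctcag
A match describes the letters of a window and says nothing of binding, and sites outside 250 bases were not searched.

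The regulators of the G1 phase moved both ways, with 7 of 24 measured members higher and 8 lower. The inhibitors Cdkn2c (1.15), of the INK4 family, and Cdkn1a, p21 (0.93), and the antiproliferative gene Tob1 (1.17) rose. The imprinted inhibitor Cdkn1c, p57, went the other way, with 2929, 2704 and 2348 on the E18.5 arrays, against 11917, 8406 and 14550 on the E12.5 arrays (log2 difference -2.09 ± 0.18 SE, adjusted p = 3.99e-09), and its 2 groups lay far apart. Cdk4 averaged 2455 at E18.5 and 4533 at E12.5 (log2 difference -0.88 ± 0.09 SE, adjusted p = 1.05e-07). Cyclin D2, Ccnd2, fell by 0.36 and cyclin D1, Ccnd1, rose by 0.33 on the log2 scale, and both lost their call in some settings: Ccnd2 under median centring (adjusted p = 0.142), with only the compared arrays (0.0535) and without E18.5 array 3 (0.0744), and Ccnd1 without E12.5 array 2 (0.0686), E18.5 array 1 (0.0521) or E18.5 array 2 (0.082). The count of 8 was 2 under median centring and 5 without E18.5 array 1.

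Of 9 regulators of fetal growth measured, 4 fell, Hmga2 among them, and none rose. The RNA-binding protein Igf2bp1 had 518, 579.5 and 518 on the E18.5 arrays, against 2055, 1283 and 1974 on the E12.5 arrays (log2 difference -1.66 ± 0.22 SE, adjusted p = 2.46e-06), while its relative Igf2bp3, with means of 2553 at E18.5 and 2777 at E12.5, did not pass the test (-0.12). Mycn averaged 1154 at E18.5 and 2049 at E12.5 (-0.82) and lost its call without E18.5 array 1 (adjusted p = 0.0573). Without E12.5 array 2, 7 of 9 fell and 1 rose. Among 15 imprinted genes of growth, 7 fell and 2 rose. The noncoding RNA Meg3 had 3080, 2572 and 2548 on the E18.5 arrays, against 9806, 6006 and 9963 on the E12.5 arrays (log2 difference -1.61 ± 0.23 SE, adjusted p = 6.89e-06), and Nnat (-2.36), Peg3 (-0.70), Ndn (-0.56) and the receptor Igf2r (-0.63) also fell. Dlk1, in the same imprinted cluster as Meg3, rose (1.02, with means of 8087 at E18.5 and 4026 at E12.5). Igf2 differed by -0.22 and did not pass the test.

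Chromatin regulators were lower in 12 of 20 cases and higher in none, with a median of -0.34 (7 lower under median centring). The DNA methyltransferases Dnmt3b (-0.79), Dnmt1 (-0.60) and Dnmt3a (-0.57), the remodeller Smarca4 (-0.53) and Hells (-0.70) fell. Of ribosome biogenesis and translation genes, 8 of 20 fell, Nop56 (-0.73), Nhp2 (-0.70) and Npm1 (-0.43) among them, and 1 rose, the muscle elongation factor Eef1a2 (1.04 on the log2 scale, which lost its call without E12.5 array 1 or 3, with adjusted p = 0.0568 and 0.0705). The first count was 4 under median centring. Amino acid and nucleotide synthesis genes fell in 7 of 19 cases, Asns (-1.12), Cad (-1.0) and Phgdh (-0.80) among them, and rose in 2. The muscle splicing regulator Rbm20 rose (0.71), and Ptbp2, a repressor of muscle and neural exons, fell (-0.58).

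Of 30 cardiac transcription factors measured, 5 rose and 7 fell, against 14.7% and 16.9% of all genes. The counts were 5 and 4 without E18.5 array 2, and 7 and 4 under median centring. Nkx2-5 (0.02), Gata4 (0.14), Irx4 (-0.05), Mef2c (-0.20), Hey2 (0.43) and Tbx5 (-0.64) did not pass the test. Gata6 (0.66) and Mef2a (0.66) rose. Gata5 had 20.9, 37.4 and 60.2 on the E18.5 arrays, against 486, 348 and 489.7 on the E12.5 arrays (log2 difference -3.06 ± 0.27 SE, adjusted p = 3.69e-09), and Hand1, a factor of the left ventricle, averaged 599 at E18.5 and 1257 at E12.5 (log2 difference -1.04 ± 0.29 SE, adjusted p = 0.00658). Both were lower on every E18.5 array than on any E12.5 array.

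Of 16 ventricular chamber genes, 1 rose (Ckm, above) and 3 fell, Gja5, Hand1 and Mpped2, the last to a mean of 826 at E18.5, against 1995 at E12.5 (log2 -1.24, with an adjusted p of 0.0536 without E12.5 array 3). Over all genes the shares were 14.7% higher and 16.9% lower. The natriuretic peptide Nppa had 11905, 10798 and 9430 on the E18.5 arrays, against 14118, 12559 and 16409 on the E12.5 arrays (-0.42) and Nppb differed by 0.29, and neither passed the test. Npr3, the clearance receptor of these peptides in the endocardium, fell (log2 difference -1.19 ± 0.15 SE, adjusted p = 1.41e-06), as did the neuregulin receptor Erbb2 (-0.66). Of 16 atrial genes, 4 fell and 1 rose, with a median of -0.55. Dkk3 (-1.50) and Angpt1 (-1.41) fell beside Myl7 and Myl4. The summed intensity of the 16 atrial genes was 28713, 19513 and 18664 on the E18.5 arrays, against 37733, 28421 and 43337 on the E12.5 arrays, so that E18.5 array 1 lay above E12.5 array 2. Without E18.5 array 1 the number that fell was 7, and without E12.5 array 1 none rose. Bmp10, the trabecular and right atrial growth factor, had 516, 400.4 and 635 on the E18.5 arrays, against 856, 604 and 682 on the E12.5 arrays (-0.46).

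Of 35 endothelial genes measured, 16 rose and 6 fell (12 to 17 higher and 4 to 7 lower with any 1 of the 6 arrays left out). Those that rose included Rbp7, a retinol binding protein of capillary endothelium (log2 difference 3.61 ± 0.66 SE, adjusted p = 0.000135), the caveolin Cav1, which had 9306, 10317 and 8316 on the E18.5 arrays, against 1568, 4544 and 1336 on the E12.5 arrays (log2 difference 2.12 ± 0.29 SE, adjusted p = 3.48e-06), the water channel Aqp1 (1.81), the tight junction gene Cldn5 (1.58), the apelin receptor Aplnr (1.72) and the factors Sox17 (1.73) and Sox18 (1.09). Lyve1, a marker of lymphatic endothelium and of resident macrophages, rose by 1.94. Among the 6 that fell were the fenestral diaphragm gene Plvap (-1.20) and the angiopoietin receptor Tek (-0.58). Kdr (0.14), Eng (0.10), Cdh5 (0.40) and Emcn (-0.22) did not pass the test.

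Of 15 genes of smooth muscle and pericytes, 8 rose and 2 fell (4 and 5 rose without E12.5 array 1 and array 3). Rgs5, a pericyte marker, had 3463, 4278 and 3422 on the E18.5 arrays, against 90.2, 421 and 276 on the E12.5 arrays (log2 difference 3.96 ± 0.64 SE, adjusted p = 3.16e-05), and the receptor Pdgfrb averaged 1111 at E18.5 and 606 at E12.5 (log2 difference 0.87 ± 0.18 SE, adjusted p = 0.000692). The 2 that fell were transgelin and calponin, actin-binding proteins of smooth muscle: Tagln had 486, 523 and 499.6 on the E18.5 arrays, against 3120, 1543 and 5929 on the E12.5 arrays (log2 difference -2.56 ± 0.44 SE, adjusted p = 6.69e-05), and calponin, Cnn1, averaged 654 at E18.5 and 3327 at E12.5 (log2 difference -2.31 ± 0.24 SE, adjusted p = 7.26e-08). Acta2 differed by -0.04. Neither Rgs5 nor Tagln had overlapping groups.

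Among 18 collagens, 9 rose and 5 fell (8 to 10 and 3 to 4 with any 1 of the 6 arrays left out, with 3 lower without E12.5 array 1, E12.5 array 3 or E18.5 array 3). Col15a1 (2.02), the type VI chains Col6a1 (1.22), Col6a2 (1.26) and Col6a3 (1.52), Col14a1 (1.43) and the fibrillar chain Col1a1 (1.31) rose. Col1a1 had 5848, 5473 and 4698 on the E18.5 arrays, against 1892, 4075 and 1270 on the E12.5 arrays (log2 difference 1.31 ± 0.31 SE, adjusted p = 0.00191), where the E12.5 array 2 value lay nearest to E18.5. Col2a1, described above, and the endostatin precursor Col18a1 (-1.31) fell, and the basement membrane chains Col4a1 (0.26) and Col4a2 (0.30) did not pass the test.

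Of 36 further matrix and fibroblast genes, 12 rose and 7 fell. Dermatopontin, Dpt, a collagen-binding matrix protein, had 2296, 2402 and 2512 on the E18.5 arrays, against 178, 215 and 159.6 on the E12.5 arrays (log2 difference 3.60 ± 0.74 SE, adjusted p = 0.000458). Periostin, Postn (1.49), the proteoglycans Dcn (1.26), Ogn (1.45) and Lum (0.93), the calcification inhibitor Mgp (1.40) and the laminin chain Lama2 (1.29) rose. Vcan, the versican of cardiac jelly, had 1818, 1825 and 1966 on the E18.5 arrays, against 5362, 4541 and 6538 on the E12.5 arrays (log2 difference -1.53 ± 0.20 SE, adjusted p = 2.48e-06), and Hapln1, which links versican to hyaluronan, fell by 3.30 on the log2 scale. Fibronectin, Fn1 (-0.80), and fibrillin 2, Fbn2 (-0.80), fell too, and so did the hyaluronan receptor Cd44 (-1.02) of another list.

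Of 15 epicardial genes, 8 fell and 1 rose, with a median of -0.45 (0 higher and 6 to 7 lower with any 1 of the 6 arrays left out). The 1 that rose, Tcf21, also lost its call under median centring (adjusted p = 0.0585) and quantile normalization (0.0566). The mesothelial genes Upk3b (log2 difference -1.20 ± 0.24 SE, adjusted p = 0.000406), Krt19 (-1.72), Bnc1 (-1.79) and Aldh1a1 (-1.69) fell, whereas the epicardial factor Wt1 differed by -0.14 and Aldh1a2 by 0.42, below the threshold. Of 19 genes of endocardial cushions and valves, 7 fell and 3 rose. Foxc2 (-1.25), Foxc1 (-0.89), Twist1 (-1.46) and Tgfb2 (-1.07) fell, and the mesenchymal factor Prrx1 rose (2.08), with 544, 665 and 589 on the E18.5 arrays, against 103, 167 and 121 on the E12.5 arrays.

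Of 22 Wnt pathway genes, 9 fell and 2 rose (5 and 1 without E12.5 array 1, 9 and 0 without E12.5 array 3). The ligand Wnt5a had 309, 266 and 301 on the E18.5 arrays, against 1592, 1020 and 1471 on the E12.5 arrays (log2 difference -2.13 ± 0.25 SE, adjusted p = 3.3e-07), the ligand Wnt11 fell by 0.78, the antagonist Sfrp1 averaged 979 at E18.5 and 3186 at E12.5 (-1.68) and the receptor Fzd2 fell as well (-0.73). Of 18 BMP and Id genes, 6 fell and 2 rose (5 and 4 without E12.5 array 1, 6 and 1 without E18.5 array 2 or E18.5 array 3). The ligands Bmp4 (-1.02), Bmp5 (-1.14) and Bmp7 (-0.66) fell, and so did the target Id2 (-1.14), while the target Id1 rose by 0.52 (adjusted p = 0.0534 without E18.5 array 2). Of 15 TGF-beta genes, 6 fell and 2 rose (6 and 1 with any array but E12.5 array 2 left out), with Tgfb2, the receptor Tgfbr1 (-0.68) and the latent binding protein Ltbp1 (-1.34) lower and the target Postn higher.

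In the Notch pathway 5 of 16 genes rose and 3 fell (3 and 1 without E12.5 array 1 or E18.5 array 3). The targets Nrarp (1.06) and Heyl (0.87) rose and the ligand Dll1 fell (-1.26). The binding proteins of insulin-like growth factors diverged: Igfbp7 had 2810, 2969 and 2079 on the E18.5 arrays, against 475, 559 and 472 on the E12.5 arrays (log2 difference 2.33 ± 0.34 SE, adjusted p = 6.92e-06) and Igfbp6 rose by 1.14, while Igfbp2 had 185, 126 and 217 on the E18.5 arrays, against 1882, 1602 and 1802 on the E12.5 arrays (log2 difference -3.23 ± 0.30 SE, adjusted p = 1.28e-08) and Igfbp5 fell by 0.77 on the log2 scale. The E18.5 and E12.5 values of these 4 genes did not overlap. The angiotensin receptor Agtr1a (1.27), the adenylyl cyclase Adcy5 (0.75) and the kinase subunit Prkaca (0.88) rose, and the endothelin receptor Ednrb fell (-1.30).

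The embryonic globins mark primitive red cells. The summed intensity of the 3 embryonic globins was 273, 514 and 288.5 on the E18.5 arrays, against 38155, 23093 and 54319 on the E12.5 arrays, and all 3 genes fell (16.9% of all genes did). Hbb-y had 229, 432 and 137 on the E18.5 arrays, against 14169, 14316 and 18637 on the E12.5 arrays (log2 difference -5.92 ± 0.36 SE, adjusted p = 2.34e-12) and Hba-x had 38.0, 78.5 and 146 on the E18.5 arrays, against 12975, 8222 and 17080 on the E12.5 arrays (log2 difference -7.01 ± 0.50 SE, adjusted p = 8.47e-11). E12.5 array 2 lacked most of the third, Hbb-bh1, at 554 against 11010 and 18602 on its companions. Other erythroid genes fell in 6 of 11 cases, among them the anion exchanger of red cells, Slc4a1 (log2 difference -4.14 ± 0.72 SE, adjusted p = 7.64e-05), and carbonic anhydrase 2, Car2 (-2.43). That count was 2 without E12.5 array 3 and 8 without E12.5 array 2. The summed intensity of the 11 genes was 3217, 2913 and 3564 on the E18.5 arrays, against 16258, 5016 and 26507 on the E12.5 arrays, with array 3 the highest. The adult globin Hbb-b2, whose probe set may also read its near-identical copies, differed by 0.06.

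Genes of MHC class I and of the interferon response rose in 10 of 13 cases with none lower, and their median, 1.27, compares with -0.03 for all genes (9 to 10 higher and 0 lower with any 1 of the 6 arrays left out). Ifitm3, an interferon-induced membrane protein, had 5507, 6700 and 5236 on the E18.5 arrays, against 1388, 1391 and 1187 on the E12.5 arrays (log2 difference 2.12 ± 0.16 SE, adjusted p = 3.04e-10). H2-D1, a class I heavy chain, averaged 1820 at E18.5 and 845 at E12.5 (log2 difference 1.11 ± 0.18 SE, adjusted p = 4.3e-05), and Irf7 (1.61), Psmb8 (1.95) and Ifi35 (1.30) rose. H2-K1 (0.18) and B2m (-0.17) did not pass the test. Of 23 macrophage genes, 4 rose and 1 fell, where 14.7% and 16.9% of all genes did (2 rose without E12.5 array 3, E18.5 array 2 or E18.5 array 3). The complement gene C1qa rose by 1.68, lysozyme Lyz2 fell (-0.99), and Csf1r (-0.13) and Adgre1 (-0.11) did not pass the test. Of 9 genes of mast cells and other leukocytes, 4 rose and 1 fell (none fell without E12.5 array 1, E12.5 array 2 or E18.5 array 2, and none rose under the stricter intensity filter). The protease Tpsb2 had 294, 234 and 262 on the E18.5 arrays, against 18.3, 20.6 and 31.1 on the E12.5 arrays (log2 difference 2.81 ± 0.50 SE, adjusted p = 9.58e-05), and Cpa3 (1.20) and Cma1 (1.18) rose as well.

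Genes that respond to low oxygen rose in 8 of 16 cases and fell in 3. Egln3, a prolyl hydroxylase that senses oxygen, had 3122, 3159 and 2770 on the E18.5 arrays, against 418, 738 and 444 on the E12.5 arrays (log2 difference 2.51 ± 0.36 SE, adjusted p = 5.81e-06), and Ndrg1 (1.74), adrenomedullin, Adm (1.36), and Egln1 (0.88) rose, while the factor Hif1a averaged 3747 at E18.5 and 5820 at E12.5 (log2 -0.64, with an adjusted p of 0.0639 for the mean of its probe sets). Genes that respond to glucocorticoids or follow the clock rose in 8 of 14 cases with none lower (5 without E12.5 array 3, E18.5 array 2 or E18.5 array 3), with Sgk1 (1.35), Per1 (0.87) and Fkbp5 (0.50) among them. Of 18 immediate early and heat shock genes, 4 rose, the small heat shock proteins Hspb6 (log2 difference 2.42 ± 0.38 SE, adjusted p = 2.38e-05) and Cryab (0.63) among them. Fos (-0.03), Egr1 (-0.07) and Hspa1b (-0.0047), which respond to handling of tissue, did not pass the test.

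Markers of neighbouring tissues were measured beside these results. None of 9 liver genes passed the test (1 was higher without E18.5 array 1 and 2 under quantile normalization). Their summed intensity was 795, 937 and 3232 on the E18.5 arrays, against 1919, 711 and 759 on the E12.5 arrays. Of 8 genes of foregut and lung, Krt7 fell (adjusted p = 0.12 without E12.5 array 1) and no other passed, with sums of 3885, 1167 and 3233 at E18.5, against 1731, 1902 and 2078 at E12.5, and the epithelial gene Epcam had 3012, 325 and 2295 at E18.5, against 545, 1252 and 1057 at E12.5, while the lung factor Nkx2-1 differed by -0.0022. Of 12 somite and skeletal muscle genes, Meox2, a factor also made by endothelium, rose (2.91) with Tcf15 (0.72), and the fast troponin Tnni2 fell (-2.19). The fat gene Cidea rose (log2 difference 2.81 ± 0.68 SE, adjusted p = 0.00247) among 4 brown fat and thymus genes. The part of such tissue in any result was not tested.

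The 9 ventricular arrays between the end points place the change in time. Among the 421 genes that rose at least 2-fold, the median gene had covered 31.9% of its log2 change by E13.5, 33.3% a day later and 74.1% by E16.5. Among the 354 that fell at least 2-fold the shares were 22.6%, 35.4% and 69.7%. Steps in a single direction over all 5 ages were seen for 160 and 195 of these genes (38.0% and 55.1%), and the share over all genes was not computed. The same E12.5 and E18.5 values chose these genes and set the scale of the shares. Such a choice can by itself place the ages between part of the way, so the shares are descriptions without a test. The E16.5 arrays are described as day 15.5 in another field, so the time of that step is uncertain by a day. Myom2 had 1057, 105 and 225 at E13.5, 660, 171 and 300 at E14.5 and 1611, 1875 and 3595 at E16.5, so that the E16.5 arrays lay above those of E14.5 and below those of E18.5. Hbb-y had 11402, 14063 and 13620 at E14.5 and 4355, 3251 and 1187 at E16.5, again without overlap.

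**Figure D3:**
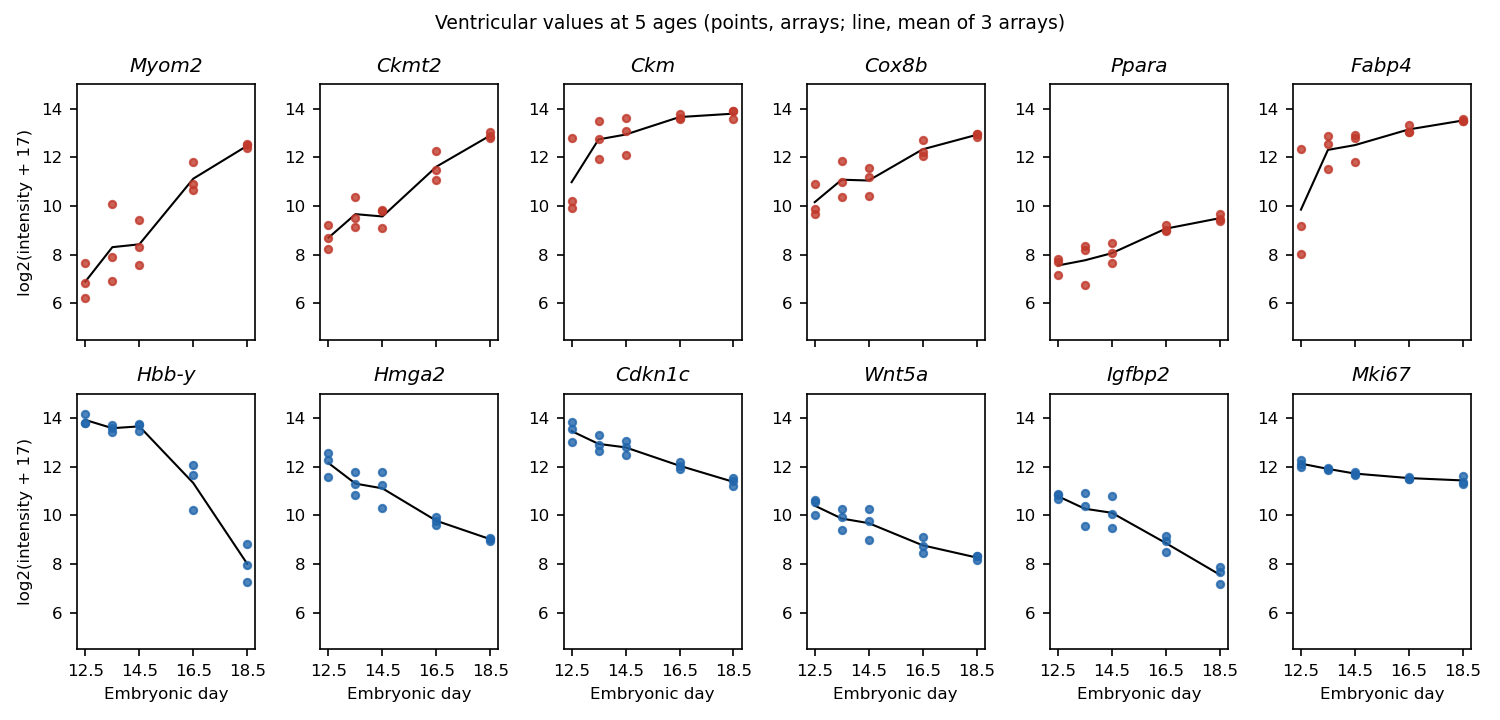
Log2(intensity + 17) of 6 genes that rose and 6 that fell, on each of 15 ventricular arrays at 5 ages, with the line through means of 3 arrays. The 3 E16.5 arrays of Myom2 lie above the 3 of E14.5 and those of Hbb-y below, while single arrays of E12.5 to E14.5 lie far apart for Ckm and Fabp4.

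Tests of the single steps called far fewer probe sets than the whole period. Between E13.5 and E12.5 none of 27256 (0.0%) passed by limma, although 3550 had an unadjusted p below 0.05, but without E12.5 array 2 the number was 1003 (685 higher, 318 lower), and with array weights it was 2508. Between E16.5 and E13.5 the number was 812 (2.98%), 346 higher (1.27%) and 466 lower (1.71%). It was 17 without E13.5 array 2, 21 without E16.5 array 3 and 145 without E13.5 array 3, and median centring turned the split to 113 higher and 1040 lower while it put the median of all probe sets at -0.13, against 0.02. Between E18.5 and E16.5 the number was 59 (0.216%), 25 higher (0.0917%) and 34 lower (0.125%). Median centring turned that split to 32 higher and 11 lower, and the number was 11 to 98 with any 1 array left out. The E13.5 and E14.5 groups held arrays far apart in these genes, as for the muscle creatine kinase Ckm, which had 11546, 3951 and 6977 at E13.5.

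From E12.5, the median log2 difference of the fatty acid genes was 0.24, 0.26, 0.50 and 0.68 at the 4 later ages, and that of DNA replication was -0.04, -0.15, -0.34 and -0.43. For the respiratory chain the values were 0.02, 0.07, 0.15 and 0.33. For MHC class I and interferon genes the values were 0.01, 0.30, 0.43 and 1.27, so that most of the difference lay between E16.5 and E18.5. The endothelial list reached only 0.06 by E16.5 and 0.36 at E18.5. These medians are descriptions without a test.

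The atria of the same ages, on 6 other arrays, show how far the ventricular change was shared. Of the 421 genes that rose at least 2-fold in ventricles, 308 were also called higher in atria and 2 lower. Of the 354 that fell, 191 were called lower in atria and 9 higher. Over all 27256 probe sets, 3426 were called higher and 3184 lower in atria, together 24.3%, and the shares over genes were not computed. The difference between the ventricular and the atrial change was tested as an interaction, and 593 genes (4.57%) passed, 164 (1.26%) with a more positive and 429 (3.30%) with a more negative ventricular change. Among the 2-fold genes, 34 of the 421 and 93 of the 354 passed, 33 and 93 of them with the larger change in ventricle. The same ventricular arrays chose these genes and enter this test. Such a choice can by itself raise both counts and favour that direction, so they do not measure how far the chambers differ. Of the lists above, 10 of 35 endothelial genes and 6 of 16 atrial genes had a more negative change in ventricle, while no fatty acid or DNA replication gene passed this test. The probe set count of 1030 (3.78%, with 1.12% positive and 2.66% negative) was 425 under median centring (173 positive and 252 negative, against 306 and 724), and 452 to 2014 with any 1 of the 12 arrays left out.

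Kcna5, the channel of the ultrarapid potassium current, rose in ventricle (log2 1.79) and fell by 1.01 on the log2 scale in atrium, an interaction of 2.80 ± 0.42 SE, adjusted p = 0.00022. Cacna1g rose by 3.06 in ventricle and differed by 0.40 in atrium (interaction 2.66 ± 0.51 SE, adjusted p = 0.00257). Tuba4a, an alpha tubulin, had 5633, 6442 and 5380 on the E18.5 arrays, against 2230, 2189 and 2388 on the E12.5 arrays, with an interaction of 2.0 ± 0.35 SE, adjusted p = 0.00123. The regulator Sall1 fell in ventricle, with 111, 135 and 129.8 on the E18.5 arrays, against 715, 558 and 674 on the E12.5 arrays, and differed by 0.41 in atrium without passing the test (interaction -2.63 ± 0.33 SE, adjusted p = 1.91e-05). Igfbp2, Gata5 and Npnt fell in both chambers and by more in ventricle, with interactions of -2.11, -2.12 and -2.40. Myh6 rose in ventricle by 0.59, with an interaction of 0.73 ± 0.21 SE, adjusted p = 0.0471, and the interaction of Myom2 did not pass the test (2.13 ± 0.94 SE, adjusted p = 0.213).

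**Figure D4:**
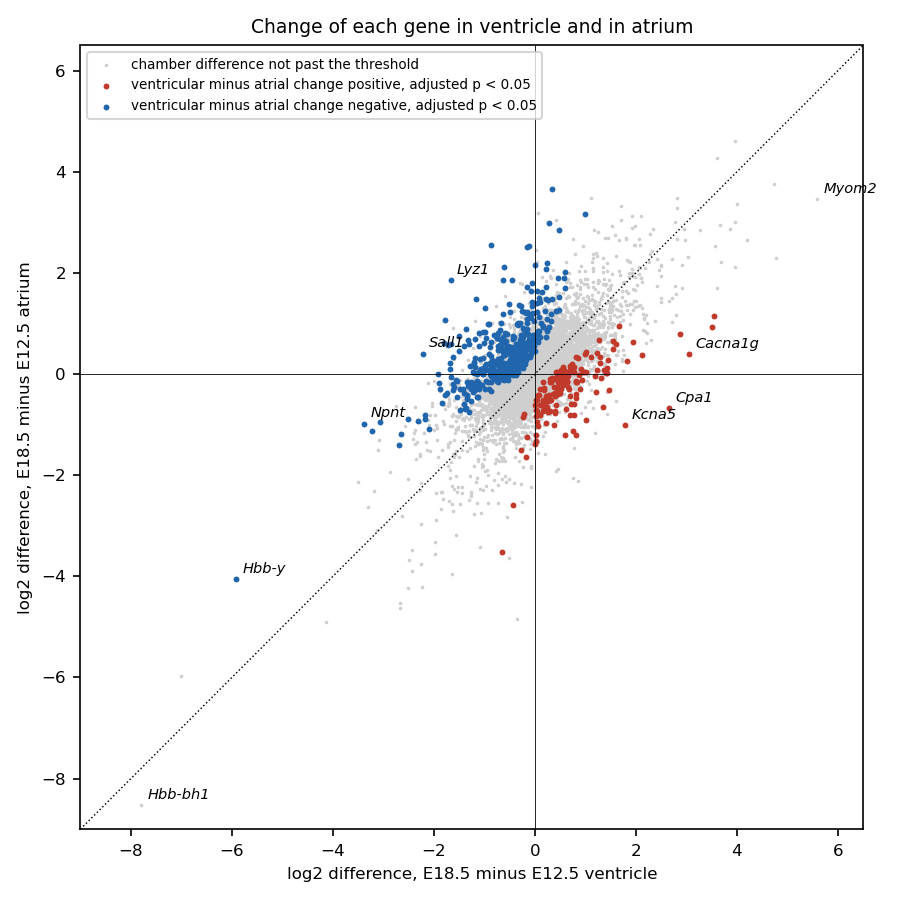
Log2 difference between E18.5 and E12.5 of each of 12983 genes in ventricle (horizontal) and atrium (vertical); coloured points are the 164 and 429 genes whose 2 changes differed at an adjusted p below 0.05, and the dotted line marks equal change. Kcna5 and Cpa1 lie right of the line and Sall1 and Lyz1 left of it, while Hbb-bh1 is low in both chambers.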

How the data were processed

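Expression was measured on 36 Affymetrix Mouse430_2 arrays, 3 in each of 12 groups. The authors deposited 1 intensity per probe set and array. The 2% trimmed mean is 500.0 on every array, so the intensities had been scaled, and the software and method of summary are not given in the sources used here. After removal of 64 control probe sets, 45037 remained, of which 34945 have 1 gene symbol, 932 several and 9160 none in the platform annotation. Probe sets were kept where 3 or more arrays exceeded 171.8, the overall median (27256 probe sets, 12983 genes), and log2(intensity + 17) was fitted over all 36 arrays with limma 3.58.1 in R 4.3.3 (lmFit, eBayes with an intensity trend, 24 residual degrees of freedom), with Benjamini-Hochberg adjustment over all kept probe sets and a threshold of 0.05. The added 17 understates the change of low genes. Each gene is represented by whichever of its probe sets was brightest on average. The number of arrays limits the precision.

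In a test on simulated data with 27256 probe sets, 99% of 4-fold and 86% of 2-fold changes were called. The 62 gene lists (1168 members, 957 genes measured) and the comparison itself were chosen with earlier results of these data known, and lists were described without a test. Genes were named by rule: the 20 largest called differences in each direction without overlap between the groups, up to 6 called members of each list in each direction, a fixed set of heart genes, and the 10 largest called differences between ventricular and atrial change in each direction. Other list members were given as values. Alternatives covered scaling, the added constant, the filter, the arrays fitted, weights, a replicate block, averaging of probe sets per gene and each array left out. Perm1 and Esrrg are among 64 genes with probe sets called in both directions, of 5923 with more than 1 probe set.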

Additional observations from a re-analysis of the deposited data

Results flagged for a closer look

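The change over the period was set against that of the atria by an interaction in limma, and 1030 probe sets passed at an adjusted p below 0.05. Values below are the log2 change in ventricle minus that in atrium, and each gene passed this test in the main fit. Many of these calls depended on the arrays or settings used. With arrays left out in turn, 89 of 348 values, in 14 of 29 genes, lost their call. Under the other settings, 45 of 310 values, in 14 genes, lost it.

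The change was more positive in ventricle for Cpa1 (3.33), Rhd (2.87), Kcna5 (2.80), Cacna1g (2.66), Rtl3 (2.59), Steap4 (2.39), Reln (2.15), Ankrd23 (2.06), Bad (2.02), Tuba4a (2.0) and Myh6 (0.73). It was more negative in ventricle for Lyz1 (-3.52), Has1 (-3.43), Scgb3a2 (-3.33), Dhx38 (-2.86), Thbs3 (-2.72), Hdc (-2.70), Tmem100 (-2.67), Kcnc2 (-2.66), Tgfbi (-2.65) and Sall1 (-2.63). Further genes with a more negative ventricular change were Npnt (-2.40), Bmp10 (-2.32), Gata5 (-2.12), Igfbp2 (-2.11), Hbb-y (-1.87), Mdk (-1.47), Tbx5 (-1.36) and Rps6ka6 (-1.29).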

How the results depend on the processing

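Over the whole period, 7835 probe sets were called in ventricle. The count was 6080 with only the compared arrays, 10204 with array weights and 5774 to 7769 with any 1 of the 6 arrays left out. When probe sets were averaged, 4980 of 17150 gene means were called. The replicate block gave 7728. Deviations of same-numbered E18.5 and E12.5 arrays correlated at 0.058, 0.233 and 0.111, and those of unlike-numbered arrays at -0.163 to 0.065. Whether the array numbers pair the samples was not tested. Between E13.5 and E12.5 the count of 0 was 1 with no filter, 2508 with array weights and 0 to 1003 with 1 array left out. Between E16.5 and E13.5 the count of 812 was 506 with no filter, 3951 with array weights, 484 for averaged probe sets and 17 to 1185 with 1 array left out. Between E18.5 and E16.5 the count of 59 was 399 with array weights and 11 to 98 with 1 array left out. For the difference between chambers the count of 1030 was 425 under median centring, 407 with only the compared arrays, 4733 with array weights, 630 for averaged probe sets and 452 to 2014 with 1 array left out. In atrium the count of 6610 was 4051 with only the compared arrays, 12642 with array weights, 4250 for averaged probe sets and 3817 to 7409 with 1 array left out. The causes were not tested. Median centring moved the median difference between E13.5 and E12.5 to 0.09, against -0.02.

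For the ventricular change of the 391 named genes, no alternative gave the opposite sign with a call in it or in the main fit. Most of these genes were chosen for called differences in these same data, so this is not an independent check. With 1 array left out, 244 of 2346 values, in 93 genes, lost their call, and 1 value gained one. Under the other settings 128 of 4647, in 64 genes, lost it and 11 gained one.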
